A study of Mus musculus with 3 samples.

Results

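Tbx2, Tbx3, Tbx4, Pitx1, Prrx1, Lix1, Foxf1, Tcf21, Osr1 and Wt1 mark the lateral plate mesoderm and the fields that arise from it, and they were followed here in 3 pairs of mouse E8.75 embryo RNA samples. They were chosen by name, and every non-control probe named for one of them was taken, which gave 12 probes of 55681 and 10 genes of 23555 tested (15378 of these 23555 carry a matched RefSeq gene name). Each of 3 two-colour arrays held RNA labelled Brpf1-deficient in the Cy5 channel and RNA labelled wild-type in the Cy3 channel. The labels give no strain, allele, Cre or treatment, and they leave the number of embryos behind each RNA unstated. Brpf1 encodes a scaffold of histone acetyltransferase complexes. The dyes were not swapped on any array, so dye and genotype cannot be told apart. With no separate extracts stated, the p-values measure only the spread between these 3 pairs, which limma moderates with that of all genes.

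The lateral plate is the sheet of mesoderm beside the somites. It splits into a somatic layer, from which the limb buds grow, and a splanchnic layer, which surrounds the gut and gives the heart and visceral muscle. Tbx4 and Pitx1 mark the hindlimb field and Tbx5 the forelimb field, Prrx1 marks limb mesenchyme, Foxf1 the splanchnic layer, and Osr1, Tcf21 and Wt1 the intermediate mesoderm, proepicardium and coelomic lining. Of the 10, Lix1, first described for its expression in chick limb, is not a DNA-binding transcription factor.

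Each value below is a log2 ratio with Cy5 on top, and one above 0 means that the Brpf1-deficient label had the brighter channel. The targeted gene went against that label. The only named Brpf1 probe had log2 ratios of 2.01, 1.43 and 1.06 in pairs 1, 2 and 3 (mean 1.499 ± 0.19, SE, n = 3 pairs; limma adjusted p = 0.0405). Where this probe lies relative to the disrupted part of the gene was not analysed here, and whether the dye labels run as given was not tested. If they were exchanged, every direction by genotype would turn, so each is given by channel. Heart muscle markers of the embryo were measured, and so were Prl8a2, a prolactin-family gene of the decidua, and Prl3d1, a hormone gene of trophoblast giant cells, on all 3 arrays in both channels. Between pairs, the correlation of ratios across genes, which are not independent replicates, ran from 0.152 (pairs 2 and 3) to 0.409 (pairs 1 and 2).

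None of the 10 genes passed the threshold, an adjusted p of 0.05 in limma over all genes. Over all 23555 genes 1.38% passed, 1.29% as higher and 0.0934% as lower in Cy5, and 0.813% did when all kept probes were fitted singly. Most of the genes that passed were brighter than any member: 284 of the 326 had a mean log2 intensity above 15, where the members reached 14.5 at most, and of the 21186 genes at or below 15 the share was 0.198% (42 genes). The calls over all genes, that of Brpf1 included, were lost with any 1 of the 3 pairs left out, with a loess span of 0.02 and with scanner-processed signals, under each of which 0 genes passed. The adjusted p-values of the 10 ran from 0.385 for Lix1 to 0.976 for Tbx4, and 0 of the 10 had an unadjusted p below 0.05, against 17.3% of all genes. By mean log2 ratio 4 of the 10 lay above 0 and 6 below, against 45.6% of all genes above 0, and the median was -0.09, against -0.02 over all genes. Foxf1 counts as below 0 by its brighter probe. With the mean over the probes of a gene, Foxf1 had 0.050, and the median of the members was -0.025, against -0.015 over all genes. Means ran from -0.33 for Lix1 to 0.27 for Pitx1. For all 10 the 95% interval of the mean held 0. The interval stayed inside -1 to 1, a 2-fold difference either way, for 9 of 10, as it did for 96.5% of all genes, and Wt1 was the exception. It stayed within 1.5-fold either way for Tbx2, Tbx3, Foxf1, Tcf21 and Prrx1, 5 of the 10, against 80.6% of all genes.

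All 12 probes were well above background in both channels on all 3 arrays, and no spot of theirs was saturated or flagged as an outlier. The dimmest reading was that of Tbx2, with a median spot intensity of 390 in Cy5 (pair 2) and 233.5 in Cy3 (pair 3), at least 2.29 times the local background in Cy5 and 3.59 times in Cy3. The brightest was that of Foxf1, with 40298 in Cy5 (pair 1) and 21945 in Cy3 (pair 2). Raw Cy5 readings were higher in general, with a median over probes of 1.63 to 1.75 times Cy3 before normalization. Each probe had 1 spot per array, so the error given comes from the spread between pairs. It is the moderated SE of limma, which draws the spread of each gene towards that of all genes. For a gene with a larger SD over pairs than most, such as Wt1 or Tbx4, this SE and its interval are narrower than its own 3 pairs alone would give.

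**Figure D1:**
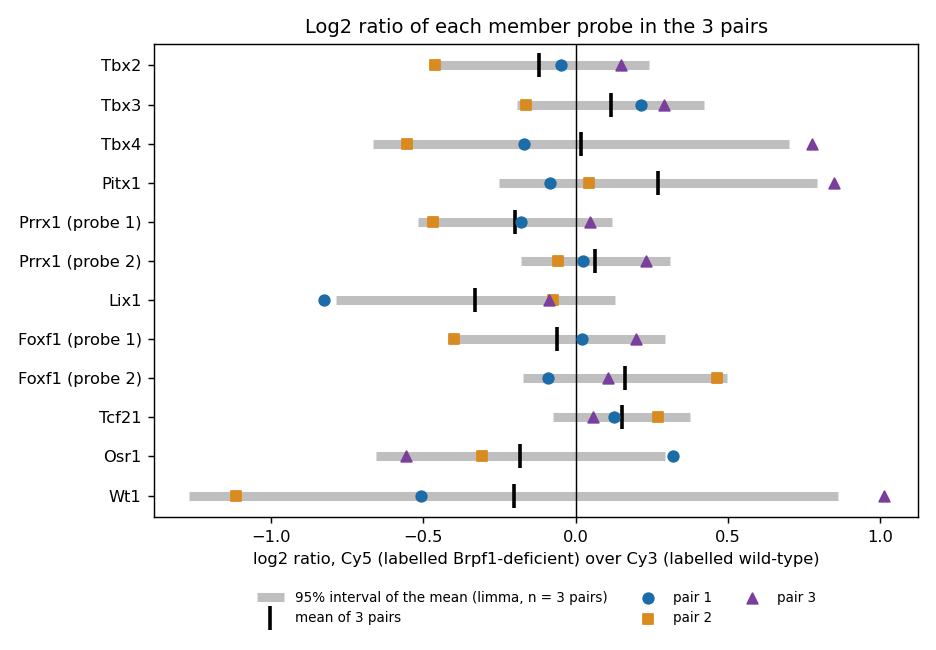
Log2 ratio of Cy5 over Cy3 for each of the 12 probes (rows), with 1 marker per pair, a black tick for the mean and a grey bar for its 95% interval from limma over all kept probes (n = 3 pairs). Every grey bar crosses 0, the markers of pair 3 lie right of those of pair 2 for most probes, and Wt1 has the widest bar.

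The T-box genes Tbx2 and Tbx3 encode related transcriptional repressors of limb margins, heart and other sites. Tbx2 had normalized intensities of 517, 316 and 350 in Cy5 of pairs 1, 2 and 3, and of 534, 436 and 316 in Cy3. The channels overlapped, and pair 1 was the brightest in both. Its log2 ratios were -0.05, -0.46 and 0.15, with a mean of -0.12 ± 0.14 (SE, n = 3; limma adjusted p = 0.669). Tbx3 had normalized intensities of 12216, 8728 and 11327 in Cy5 and of 10516, 9765 and 9259 in Cy3. Its Cy5 values were above those of Cy3 in pairs 1 and 3 and below in pair 2. The log2 ratios of 0.22, -0.16 and 0.29 gave a mean of 0.12 ± 0.12 (adjusted p = 0.628). Tbx2 and Tbx3 were both lowest in pair 2 and highest in pair 3.

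Tbx4 is a T-box activator of hindlimb outgrowth and of the allantois, and in the RefSeq gene order it lies next to Tbx2. Its normalized intensities were 4954, 2107 and 2190 in Cy5 of pairs 1, 2 and 3, and 5568, 3091 and 1280 in Cy3. The highest Cy3 value was 4.35 times the lowest, a spread larger than that of 99.8% of all genes. In Cy5 the highest was 2.35 times the lowest. Over all genes the median of this spread was 1.23-fold in Cy5 and 1.19-fold in Cy3. The log2 ratios of Tbx4, -0.17, -0.55 and 0.77, lay on both sides of 0, with a mean of 0.02 ± 0.26 (SE, n = 3; adjusted p = 0.976). Without pair 3 the mean was -0.36 (adjusted p = 0.359), and without pair 2 it was 0.30.

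Pitx1, the homeobox activator of Tbx4 in the hindlimb, had normalized intensities of 12607, 12715 and 14045 in Cy5 and of 13357, 12317 and 7801 in Cy3. Cy5 values were nearly alike, with a highest value 1.11 times the lowest, and the Cy3 value of pair 3 stood apart from the others. The log2 ratios were -0.08, 0.05 and 0.85, with a mean of 0.27 ± 0.20 (SE, n = 3; limma adjusted p = 0.507). Without pair 3 the mean was -0.019. Pitx1 and Tbx4 had their lowest Cy3 value, and their highest ratio, in pair 3, as did Tbx2, Tbx3, Wt1 and the brighter Foxf1 probe. The highest ratio lay in pair 3 for 7 of the 10 members and for 35.7% of all genes. Tbx5, the forelimb counterpart of Tbx4, had log2 ratios of -0.21, -0.33 and -0.09, with a mean of -0.21 ± 0.09 (adjusted p = 0.306), and did not pass the threshold.

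Prrx1, a homeobox gene of limb and facial mesenchyme, was read by a pair of probes. The brighter one, named for transcript variant 2 in the authors' deposited table, had normalized intensities of 1717, 1806 and 2119 in Cy5 and of 1943, 2496 and 2049 in Cy3. Its log2 ratios were -0.18, -0.47 and 0.05 (mean -0.20 ± 0.12, SE, n = 3; adjusted p = 0.437). The dimmer one, named there for variant 3, gave 0.02, -0.06 and 0.23, with a mean of 0.06 ± 0.09 in limma over all kept probes (adjusted p = 0.746). The means of the probes lay on opposite sides of 0, and both probes were lowest in pair 2 and highest in pair 3.

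Lix1 had the largest mean distance from 0 of the 10. Its normalized intensities were 1964, 4746 and 3636 in Cy5 and 3480, 5000 and 3858 in Cy3, and the Cy5 value of pair 1 stood apart. The log2 ratio was below 0 in all 3 pairs, at -0.83, -0.08 and -0.09, and the mean of -0.33 ± 0.17 (SE, n = 3; limma adjusted p = 0.385) was a 0.796-fold level. Without pair 1 the mean was -0.08. Lix1 and Tcf21 were the members with the same sign in every pair, 2 of 10, against 43.4% of all genes.

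**Figure D2:**
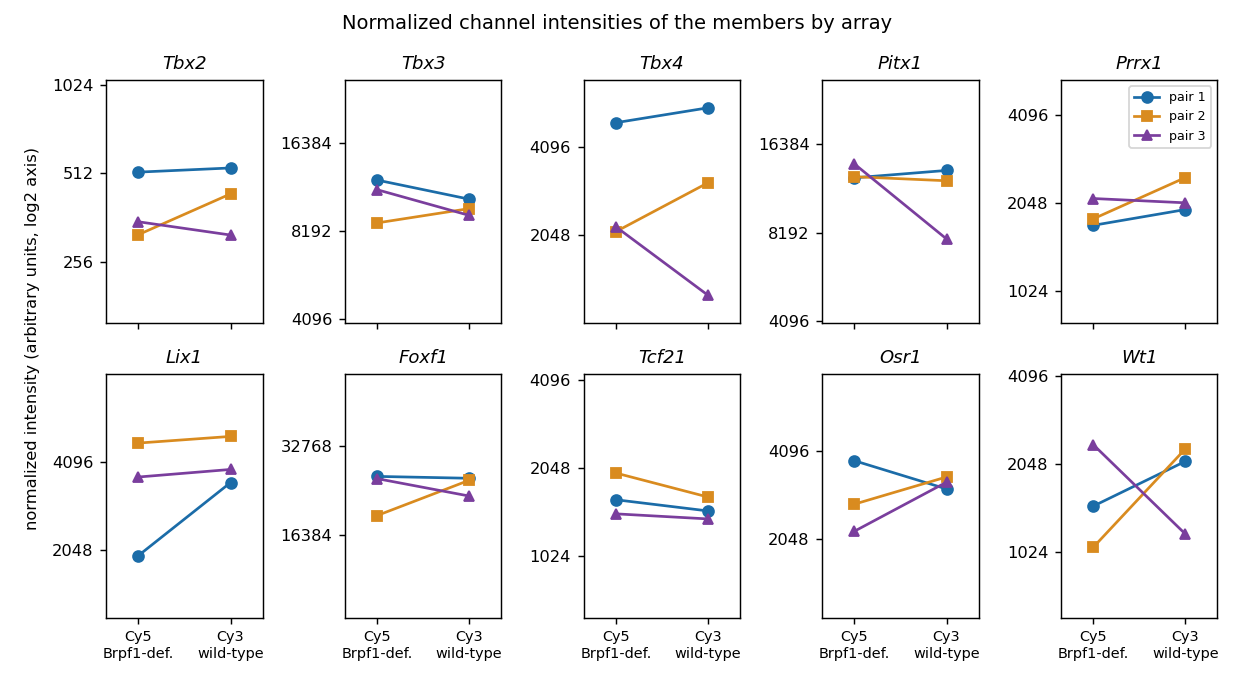
Normalized intensity (arbitrary units, log2 axis) of each gene in the Cy5 channel (labelled Brpf1-deficient, left) and the Cy3 channel (labelled wild-type, right), with 1 line per pair, for the brightest probe. All panels span the same fold range, and the Cy3 values of Tbx4 are spread 4.35-fold while those of Osr1 lie within 1.10-fold.

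Foxf1, a forkhead gene of the splanchnic layer needed in extraembryonic mesoderm and gut mesenchyme, was also read by a pair of probes. The brighter had normalized intensities of 25865, 19028 and 25417 in Cy5 and of 25490, 25093 and 22173 in Cy3, so Cy5 of pair 2 was the lowest of the 6. Its log2 ratios were 0.02, -0.40 and 0.20, with a mean of -0.06 ± 0.13 (SE, n = 3; adjusted p = 0.838). The other probe gave -0.09, 0.46 and 0.11, with a mean of 0.16 ± 0.13 over all kept probes (adjusted p = 0.554). In pairs 1 and 2 the probes of Foxf1 pointed in opposite directions although both carry the same accession. No direction is given for the gene, and counts over the members use its brighter probe.

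Tcf21, a basic helix-loop-helix gene of proepicardium and visceral mesenchyme, had normalized intensities of 1596, 1968 and 1428 in Cy5 and of 1461, 1630 and 1373 in Cy3. Cy5 was above Cy3 in each pair, and the channels overlapped over pairs. The log2 ratios of 0.13, 0.27 and 0.06 gave a mean of 0.15 ± 0.09 (SE, n = 3; adjusted p = 0.412). Its SD over pairs, 0.109, was below that of the other 9 genes.

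Osr1, a zinc finger gene of intermediate and lateral plate mesoderm, had normalized intensities of 3789, 2695 and 2180 in Cy5 and of 3036, 3336 and 3203 in Cy3. The Cy3 values were nearly alike (highest 1.10 times lowest), and those of Cy5 were spread 1.74-fold around them. Osr1 had log2 ratios of 0.32, -0.31 and -0.56, with a mean of -0.18 ± 0.18 (SE, n = 3; adjusted p = 0.623). It was highest in pair 1 and lowest in pair 3.

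Wt1, a zinc finger gene of the coelomic lining and proepicardium that uterine stroma also expresses, had the widest spread. Its normalized intensities were 1471, 1065 and 2385 in Cy5 and 2090, 2304 and 1183 in Cy3. Cy5 was lower than Cy3 in pairs 1 and 2 and higher in pair 3. The log2 ratios, -0.51, -1.11 and 1.01, covered 2.12 units, and their SD of 1.09 exceeded that of 99.5% of all genes. The mean was -0.20 ± 0.40 (SE, n = 3; limma adjusted p = 0.816), with a 95% interval from -1.24 to 0.83. Without pair 3 it was -0.81 (adjusted p = 0.235), and without pair 2 it was 0.25.

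In no member did the channels separate over the 3 pairs, while they did for 19.7% of all genes. The SD over pairs had a median of 0.371 over the 10 genes and of 0.159 over all genes, and 9 of the 10, all but Tcf21, lay above 0.159. Besides Wt1, this SD exceeded that of 97.9% of all genes for Tbx4, 94.6% for Pitx1, 92.6% for Osr1 and 91.7% for Lix1. The median size of the mean log2 ratio differed less, at 0.167 over the 10 and 0.13 over all genes.

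**Figure D3:**
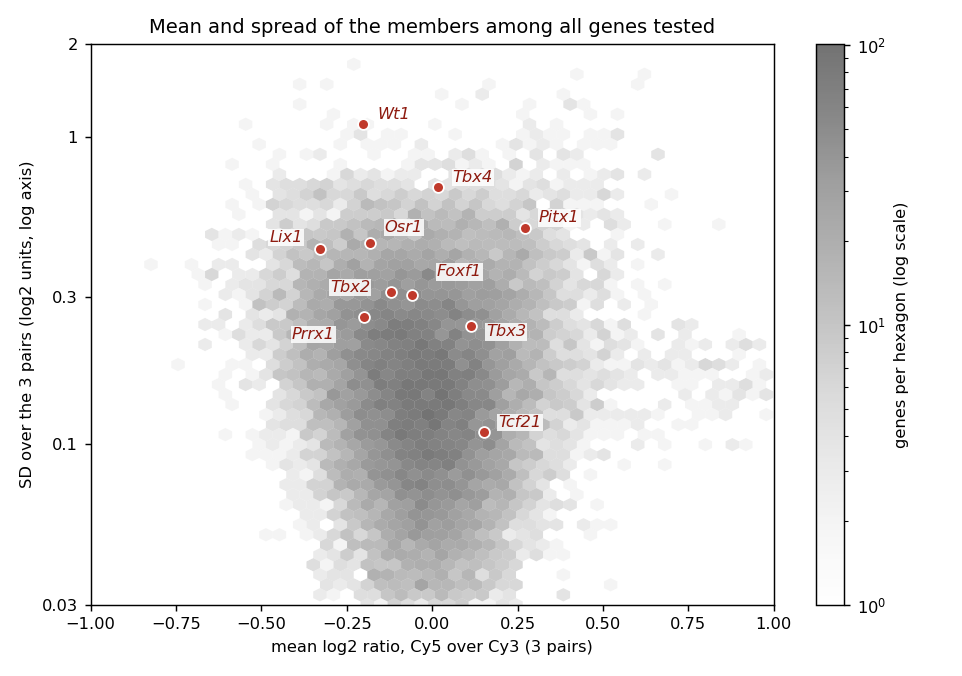
Mean log2 ratio of Cy5 over Cy3 (x axis) against the SD over the 3 pairs (y axis, log axis) for all genes within the plotted range (grey, number of genes per hexagon) and the 10 members (red). The members lie within 0.33 of 0 on the x axis, and 9 of the 10 have an SD above the median of all genes, 0.159.

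The median over the 10 genes was -0.07 in pair 1, -0.35 in pair 2 and 0.17 in pair 3, while that of all genes was -0.02, -0.04 and -0.01. In pair 1 the ratio was above 0 in 4 of the 10, in pair 2 in 2 and in pair 3 in 8, against 47.2%, 45.2% and 48.9% of all genes. Tbx2, Tbx3, Tbx4, Prrx1, Foxf1 and Wt1, 6 of the 10, were lowest in pair 2 and highest in pair 3, an order that 25% of all genes had. This order was noticed in the data and was not tested, and for Foxf1 it held for the brighter probe and not for the other.

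Markers of tissue around the embryo differed between the pairs as well. In the decidua list, all 11 genes were measured. Their median log2 ratios were -0.28, -0.41 and 0.37, and 3, 1 and 9 of them lay above 0 in pairs 1, 2 and 3. Summed normalized intensity of the list was 46061, 42809 and 81981 in Cy5 and 74564, 77280 and 55972 in Cy3. Prl8a2 had 18574, 3023 and 22874 in Cy5 and 30967, 35397 and 15135 in Cy3, which gave log2 ratios of -0.74, -3.55 and 0.60. In the trophoblast list 8 of 10 genes were measured, with medians of -0.35, -0.42 and 0.22 and 3, 1 and 6 of the 8 above 0 in pairs 1, 2 and 3. Prl3d1 had -1.19, -1.001 and 2.35. The summed intensity of the trophoblast list was 30898, 39918 and 39299 in Cy5 and 43200, 36641 and 41940 in Cy3. Its sums were thus lower in Cy5 in pairs 1 and 3 and higher in pair 2, unlike its medians, and Gcm1 (-0.70, 0.48 and -0.78) and Ascl2 (1.34, -0.73 and -0.36) in it had other signs than Prl3d1. The decidua medians and sums, the trophoblast medians, Prl8a2 and Prl3d1 had the signs of Tbx2, Tbx4, Wt1 and the brighter Prrx1 probe in each pair. Tbx3, Pitx1, Osr1, Tcf21, Lix1, both Foxf1 probes and the dimmer Prrx1 probe had other signs in at least 1 pair. The decidua sums include Prl8a2. Alpl (-0.09, -0.35 and -0.43) and Il11ra1 (-0.60, -0.41 and -0.22) of the decidua list were below 0 in pair 3 too. The share of all genes with these signs was not counted, and the part of such tissue in the members' ratios was not tested. In bulk RNA a smaller number of cells of a type and less RNA per cell cannot be told apart.

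Markers of visceral endoderm, an extraembryonic layer, lay above 0 in the median of every pair (0.14, 0.50 and 0.48 over 10 genes), and none of them passed the threshold. All 10 had a mean above 0, and 5 had an unadjusted p below 0.05 in limma, against 17.3% of all genes. Most of the list had a mean log2 intensity above 15, where most of the calls over all genes lay. In the heart muscle list the medians were -0.39, -0.26 and -0.01, and 2 of 10 genes, Myh6 and Ryr2, were lower in Cy5 (means -0.70 and -0.64, limma adjusted p = 0.0313 and 0.0483), against 0.0934% of all genes. By mean, 3 of the 10 lay above 0, Nppa (-0.37, 1.62 and 1.66, mean 0.97, adjusted p = 0.326), Actc1 (0.09) and Nkx2-5 (0.06). Summed intensity ran from 694603 to 995709 in Cy5 and from 450549 to 767515 in Cy3 for visceral endoderm, and from 259216 to 384336 in Cy5 and from 308621 to 451566 in Cy3 for heart muscle. Every marker measured in the 4 lists had already passed the filter on background, so its signal above background is no separate result. The heart muscle medians had the members' sign in pairs 1 and 2 and not in pair 3, the visceral endoderm medians in pair 3 alone, and the part of these tissues in the members' ratios was not tested.

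**Figure D4:**
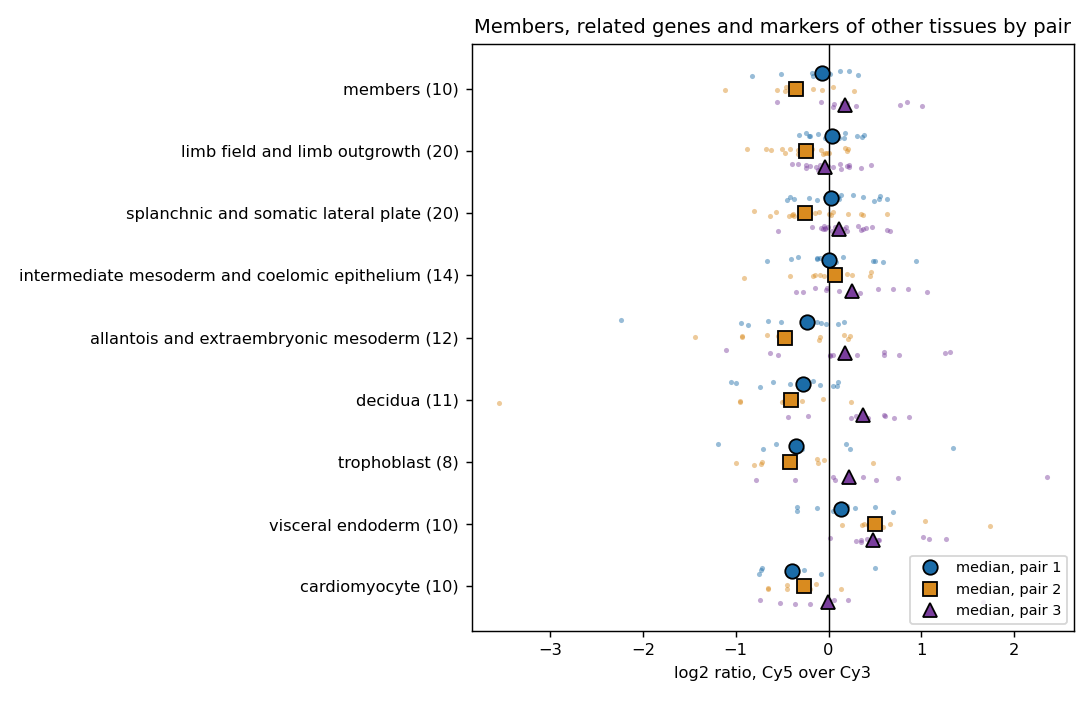
Log2 ratio of Cy5 over Cy3 in pairs 1, 2 and 3 for the 10 members, 4 lists of related genes and 4 lists of marker genes, with the number of genes measured in brackets. Small dots are genes and large markers are list medians; in the members, allantois, decidua and trophoblast rows the medians of pairs 1 and 2 lie left of 0 and that of pair 3 lies right of it.

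Other genes of the same territories did not pass either, and of all genes 1.38% did. Over all genes 17.3% had an unadjusted p below 0.05 in limma and 45.6% had a mean above 0. The lists were not tested against these shares. Of 20 limb field and limb outgrowth genes measured, 0 passed and 0 had an unadjusted p below 0.05 in limma, and 8 lay above 0 (median -0.08). Those with the smallest p were Tbx5, given above, and Sall1, a zinc finger gene of limb and kidney, with log2 ratios of 0.01, -0.50 and -0.40 (mean -0.29 ± 0.12, SE, adjusted p = 0.316).

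Of 20 genes of the splanchnic and somatic lateral plate, 0 passed and 10 lay above 0 (median 0.00), against 1.38% and 45.6% of all genes. An unadjusted p below 0.05 in limma was found for 2 of the 20, against 17.3% of all genes. The genes with a small p were Nkx2-3, a homeobox gene of gut mesenchyme, with 0.55, 0.63 and 0.37 (mean 0.52 ± 0.09, SE, limma adjusted p = 0.0938), and Wnt2, a signal of lung and heart mesoderm, with -0.38, -0.56 and -0.04 and a Cy5 signal well above background on 2 of 3 arrays (mean -0.33 ± 0.12, adjusted p = 0.281). Nkx2-3 was above 0 in all 3 pairs and the brighter Foxf1 probe in 2 of 3.

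Of 16 intermediate mesoderm and coelomic genes 14 were measured. None passed and 8 of the 14 lay above 0 (median 0.09), against 1.38% and 45.6% of all genes. An unadjusted p below 0.05 in limma was found for 3 of the 14, against 17.3% of all genes. Lhx1, a LIM homeobox gene of the nephric lineage, had 0.48, 0.08 and 0.53 (mean 0.36 ± 0.12, SE, limma adjusted p = 0.239). Osr1 and Wt1, which share this territory, had means below 0.

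The next list was that of allantois and extraembryonic mesoderm, the tissue in which Tbx4 and Foxf1 are also known. Of its 12 genes 0 passed and 3 lay above 0 (median -0.18), against 1.38% and 45.6% of all genes. An unadjusted p below 0.05 in limma was found for 2 of the 12, against 17.3% of all genes. The median of the list was -0.24, -0.46 and 0.18 in pairs 1, 2 and 3. T, the brachyury gene of primitive streak and tail bud, had -0.13, -0.46 and -1.10 (mean -0.56 ± 0.19, SE, limma adjusted p = 0.255), and Vcam1, an adhesion molecule of the allantois, had -0.94, -0.66 and 0.01 (mean -0.53 ± 0.19, adjusted p = 0.27).

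The authors' deposited table has a row for 8 of the 12 probes, and none for Tbx2, Tbx4, Wt1 and the brighter probe of Foxf1. The direction of its ratio is not stated. It was read as Cy3 over Cy5 from its correlation with the means computed here, so its overall sign is no separate check. Turned round, the authors' deposited table gives 0.27 for Pitx1, 0.12 for Tbx3, 0.19 for Tcf21, -0.18 for Osr1, -0.33 for Lix1 and -0.19 and 0.11 for the brighter and dimmer probes of Prrx1. For the dimmer probe of Foxf1 the authors' deposited table gives 0.19. The adjusted p-values of the authors' deposited table for these probes run from 0.573 to 0.705.

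**Figure D5:**
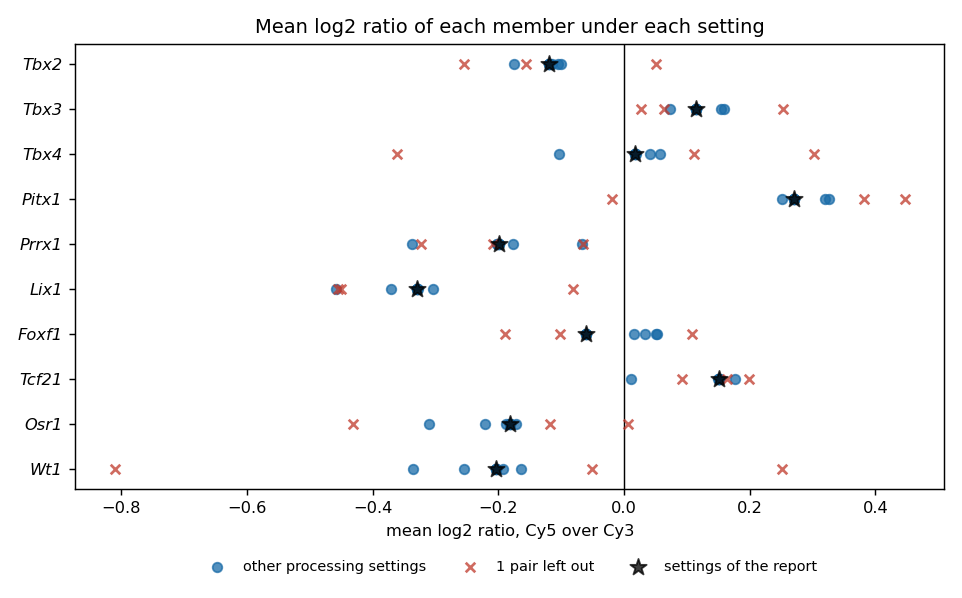
Mean log2 ratio of Cy5 over Cy3 of each member under the settings used in the text (star), other processing settings (circles) and with 1 pair left out (crosses). Tbx3, Tcf21, Prrx1 and Lix1 stay on 1 side of 0 under all settings shown, and the crosses of Wt1 span -0.81 to 0.25. The dimmer probes of Prrx1 (mean 0.06, on the other side of 0) and Foxf1 are not shown by themselves.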

How the data were processed

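The intensity values start from median signals and local background medians in both dyes, deposited as scanner output of Feature Extraction 10.7.3.1, per the file headers. The authors also deposited a probe table of log2 ratios and p-values. Per the submitters' processing notes limma was used, with its version and settings not given in the sources used here. Over 39908 shared probes the authors' log2 ratio correlated at -0.802 with the mean computed here, and it is read as Cy3 over Cy5.

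From these signals, normexp correction (offset 50) was followed by loess in each array (span 0.3), in which control spots and outliers had weight 0. A probe was kept if at least 2 arrays had it well above background in 1 and the same dye, which left 31603 of 55681, and the brightest probe stood for each gene. Names came from RefSeq accessions (GRCm38.p6 table), with unmatched features kept under their own IDs. Normalized intensities are from the same ratios after Aquantile scaling. The mean of the 3 pairs was tested against 0 in limma 3.58.1 (R 4.3.3, intercept only, two-sided), with Benjamini-Hochberg adjustment over 23555 genes. The fit was also run on simulated data, in which calls were required only for effects of 2 log2 units. All means of the members were smaller, so that requirement does not bear on them. The run also held smaller effects, and its calls for those are not given here.

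The members and the lists of related genes and markers were chosen with earlier results of these data known. All members were named, as were the 2 genes of each related list with the smallest unadjusted p, of which 1 is not reported here. Marker lists are given by medians and defining genes, and Myh6, Ryr2, Nppa, Actc1, Nkx2-5, Gcm1, Ascl2, Alpl and Il11ra1 were named after their values were seen. The arrays share 1 slide and 1 scan per the file headers, so no batch was tested. No gene was ranked by likeness to a member, since 3 pairs give 3 values. Other normalizations, filters and probe rules were tried, and each pair was left out in turn.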

Additional observations from a re-analysis of the deposited data

How the results depend on the processing

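No member passed the threshold under any of 10 alternatives, and the smallest adjusted p of a member in them was 0.235 (limma; Wt1 without pair 3). The count of all genes past the threshold, 326 as reported, was 0 with a loess span of 0.02 (3508 at an unadjusted p below 0.05), 0 with scanner-processed signals (3453 unadjusted), 651 with median centring, 201 with the mean over the probes of a gene, and 0 without pair 1, 2 or 3 (2145, 3831 and 3408 unadjusted). Of 100 member values under these alternatives 89 kept their sign and 11 did not. Many of the 89 could not change. The alternatives to the filter left all 10 means as they were, and the mean over probes left those of the 8 genes with 1 probe. Foxf1 had 0.016 with a span of 0.02, 0.052 with median centring, 0.033 with processed signals and 0.050 with the mean over probes, and Tbx4 had -0.10 with median centring. With 1 pair left out, Tbx2 ran from -0.25 (without pair 3) to 0.052 (without pair 2), Foxf1 from -0.19 (pair 3) to 0.11 (pair 2) and Wt1 from -0.81 (pair 3) to 0.25 (pair 2). Tbx4 ran from -0.36 (pair 3) to 0.30 (pair 2), Pitx1 from -0.019 (pair 3) to 0.45 (pair 1) and Osr1 from -0.43 (pair 1) to 0.0058 (pair 3). The median of the members ran from -0.22 to 0.10 and was above 0 without pair 2. The cause of these changes was not tested. No paired analysis beyond the array was possible because each pair is 1 array and the ratio is already taken within it. The number of arrays limits the precision.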
